A study of Rattus norvegicus with 415 samples.

Results

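Adipose tissue with a high level of the proliferation marker Mki67 was set against adipose tissue with a low level in a collection of outbred rats (Rattus norvegicus). RNA sequencing covered adipose tissue of 415 samples, all from animals aged 17 weeks with no treatment named in the labels, so the series holds 1 group and no control. Animals of an outbred stock differ from each other in genotype. Neither sex, litter nor fat depot was in the labels used here. The samples were ranked by the FPKM of 1 gene (ENSRNOG00000028137, Mki67), where FPKM is the read number scaled to gene length and to sequencing depth. The 104 highest samples form the high set and the 104 lowest the low set, and the 207 samples between them are called the middle samples. The 2 sets were therefore chosen by a measured value and are not groups of the study. The Mki67 level itself, which selected the samples, is given as a description with no test between the sets. The only test on it asks whether samples that share a title number are alike, and does not use the sets.

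Mki67 encodes Ki-67, a large protein that coats mitotic chromosomes and keeps them apart from each other. Its RNA and protein are made from S phase to mitosis and are lost in resting cells, which is why pathologists count Ki-67-positive nuclei to judge how fast a tissue grows. Mature adipocytes rarely divide, and in fat the dividing cells are mostly progenitors in the stroma, endothelial cells and leukocytes, among them macrophages that divide in place. A piece of fat is a mixture of all of these. In bulk RNA more cells of a dividing type cannot be told apart from more Mki67 RNA per cell. Genes of S phase are classically switched on by E2F factors. Genes of mitosis, Mki67 among them, are commonly controlled through pairs of CCAAT boxes, bound by NF-Y, and through the cell cycle homology region TTTGAA, bound by the DREAM and MuvB complexes.

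The Mki67 promoter is shown because its letters carry these elements in a dense row. In RefSeq (GRCr8) the rat gene lies on the minus strand of chromosome 1 from 199926150 to 199952847. The window below is chr1:199952544-199952843 on the minus strand, and 69.7% of its bases are G or C. It covers 250 bases before and 50 bases from a start at 199952593, the position that the promoter table's window implies. The RefSeq gene, with 2 transcripts listed, reaches 254 bases farther upstream than this start, so the window lies within the outer limits of the gene, and all distances are from 199952593. Capitals mark CCAAT or its reverse complement ATTGG, and TTTGAA.
Mki67 promoter: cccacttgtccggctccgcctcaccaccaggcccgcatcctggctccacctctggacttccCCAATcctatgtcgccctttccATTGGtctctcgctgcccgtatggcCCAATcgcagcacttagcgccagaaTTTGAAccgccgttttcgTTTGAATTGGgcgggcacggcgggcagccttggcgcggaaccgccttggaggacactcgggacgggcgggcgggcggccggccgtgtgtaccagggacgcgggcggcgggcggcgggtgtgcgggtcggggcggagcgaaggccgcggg
The window held 4 CCAAT matches, 2 on the gene's strand and 2 as ATTGG, at 189, 167, 142 and 94 bases before that start. It held 2 TTTGAA matches, at 117 and 99 bases before that start, and the second of these shares 1 base with the last ATTGG. Of 33469 RefSeq rat promoter windows of the same length, 37.5% held CCAAT on either strand, 18.3% held TTTGAA or its reverse complement TTCAAA, and 7.41% held both. The E2F letters GCGGGAA, or TTCCCGC, stood in 4.21% of windows and not in that of Mki67. A match of letters is a description and not a measured binding site.

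Mki67 was read in every sample. Its level ran from 1.99 to 17.2 FPKM, an 8.63-fold range, with a median of 4.44 and a mean of 4.69 ± 1.56 (SD, n = 415). These levels rest on 80 to 826 reads per sample, with a median of 200, along the 9880 bp of the gene model. In the low set the lowest, median and highest samples stood at 1.99, 3.27 and 3.66 FPKM, with a mean of 3.22 ± 0.350 (SD, n = 104). In the high set they stood at 5.23, 6.22 and 17.2 FPKM, with a mean of 6.68 ± 1.72 (SD, n = 104). The ratio of the 2 means was 2.08. The cuts fell in a continuous stretch of values: the last samples inside the low set had 3.655, 3.657 and 3.659 FPKM, and the first outside had 3.674, 3.677 and 3.688. At the upper edge the samples just inside had 5.226, 5.242 and 5.264 FPKM, and those just outside had 5.215, 5.211 and 5.199.

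**Figure D1:**
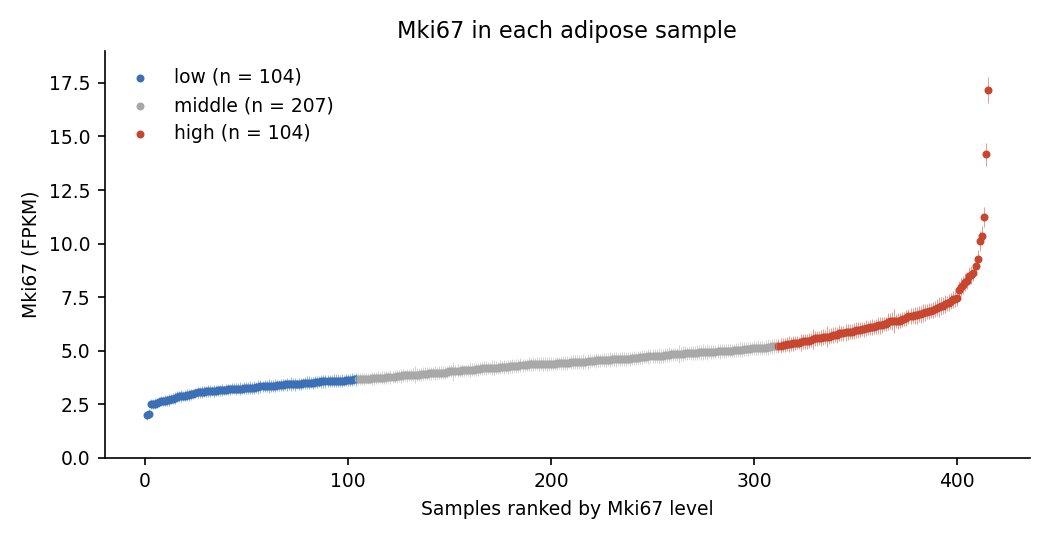
Mki67 level (FPKM) of each of the 415 adipose samples, ranked, with the low set in blue, the middle samples in grey and the high set in red; vertical bars are 1 SD of counting error. The curve climbs slowly through the low and middle samples, and 5 samples at its right end lie above 10 FPKM.

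The high set had a long upper tail. Above 8 FPKM lay 13 samples and above 10 FPKM lay 5, at 17.2, 14.2, 11.2, 10.4 and 10.1. Counting error alone amounted to 4.30% of the variance of Mki67 over all samples. Set against the variance within the low set and within the middle samples, it came to 60.2% and 51.4%. Those ranges were cut on Mki67 itself, which narrows their variance, so these values are not shares of a free spread. Within the high set counting error came to 4.98%, over a range that the upper tail widens. The median counting error was 8.33% of the level in the low set and 7.05% in the middle samples. The order of close neighbours there was thus within counting error. Of the low set 38 samples, and of the high set 19, lay within 1 counting SD of the edge that admitted them.

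Sample titles hold a number and a suffix whose meanings are not in the labels, and gaps above 500 in the numbers cut the samples into 3 blocks, used here as a possible batch. Both sets were spread over the blocks. Block 1 (n = 39) gave 11 high and 9 low samples, block 2 (n = 232) gave 58 and 66, and block 3 (n = 144) gave 35 and 29. Median Mki67 was 4.43, 4.39 and 4.50 FPKM in the 3 blocks, although 4 of the 5 highest samples belonged to block 3. Reads per sample ranged from 2139163 to 6248214 and were 0.04 higher in the high set as a difference of mean log2 reads (two-sided permutation p = 0.147 within blocks, 100000 draws).

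Samples that share a title number resembled each other weakly in Mki67. There were 105 such pairs, from 89 numbers and 186 samples. Their resemblance (the mean product of the deviations from the block mean, divided by the variance, so that 1 is identity and 0 is no likeness) was 0.194, with a one-sided permutation p of 0.0251 from 100000 shuffles within blocks. Within pairs the median difference was 1.04 FPKM, against 1.15 FPKM for samples of the same block with different numbers. In 11 pairs both samples were in the high set, in 7 both were in the low set, and 7 pairs held 1 of each. A middle sample was paired with a high one in 30 pairs and with a low one in 27, and in 23 both were middle samples. These counts were not compared with shuffled pairs.

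Across the genome the 2 sets differed in a large share of genes, mostly by small amounts. Of 16130 genes tested besides Mki67, 6129 (38.0%) passed an adjusted p of 0.05 (limma with Benjamini-Hochberg adjustment over all genes, with the block as covariate). Of these, 3113 (19.3%) were higher in the high set and 3016 (18.7%) were lower, while the median difference of all genes was 0.00 on the log2(FPKM + 1) scale. The median size of a called difference was 0.12 on that scale, and only 5% of called differences were larger than 0.52. The large differences were mainly rises: 1041 genes rose by more than 0.25 and 212 fell by more than that, 295 rose and 40 fell by more than 0.5, and 7 rose and 1 fell by more than 1. Since the log2(FPKM + 1) scale compresses the change of low genes, these counts understate them.

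**Figure D2:**
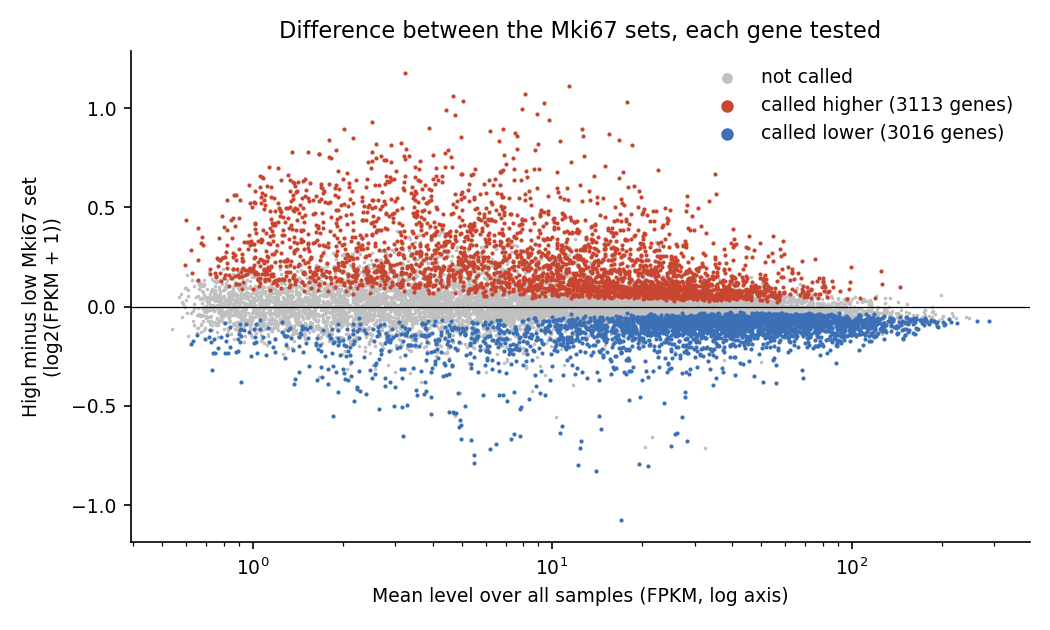
Difference between the high and the low Mki67 set (log2(FPKM + 1) units) against the mean level of each gene (FPKM, log axis), with genes called higher in red (3113), called lower in blue (3016) and not called in grey. Rises reach farther from 0 than falls among genes of low and middle level, and at the highest levels most called genes lie a little below 0.

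The identifiers in the deposited table come without gene symbols, and 0 of them could be paired with a name in the reference table used here. Whether other cell cycle genes rose with Mki67, and whether markers of adipocytes, progenitors, leukocytes or other tissues moved with it, was therefore not tested. For the same reason the sets are called by their Mki67 level and not by proliferation. The genes are described below by how they behaved, and only the 2 largest rises and 2 largest falls are given by identifier.

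The middle samples offered a check in samples that the contrast had not used, by the slope of each gene on log2(FPKM + 1) of Mki67. Here 395 genes (2.45%) passed the adjusted p of 0.05 (limma), 327 upward (2.03%) and 68 downward (0.422%). Of these, 384 were also called between the high and low sets, and all 384 moved in the same direction in both, 321 upward and 63 downward. That is 97.2% of the genes called in the middle samples and 6.27% of those called between the sets. Of the genes called between the sets, 88.9% had a middle slope of the same sign, namely 90.5% of the rises and 87.2% of the falls. A positive slope was found in 50.1% of all genes, which is not the share that agreed in sign with the contrast. Such agreement was common over all 16130 genes: 11654 had it with log2 reads as covariate in the middle samples, and 11843 with voom. With quantile-normalized genes 10902 had it, and with Mki67 quantile-normalized too only 8666. The median slope of the genes called in the middle was 0.67 for rises and -0.28 for falls, in log2 units per log2 unit of Mki67, and 46 slopes were above 1. The count depended on the scaling: with quantile-normalized genes it was 253, of which 88.5% were rises, and with Mki67 quantile-normalized too it was 4806, of which 62.0% were rises, against 82.8% of the 395.

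**Figure D3:**
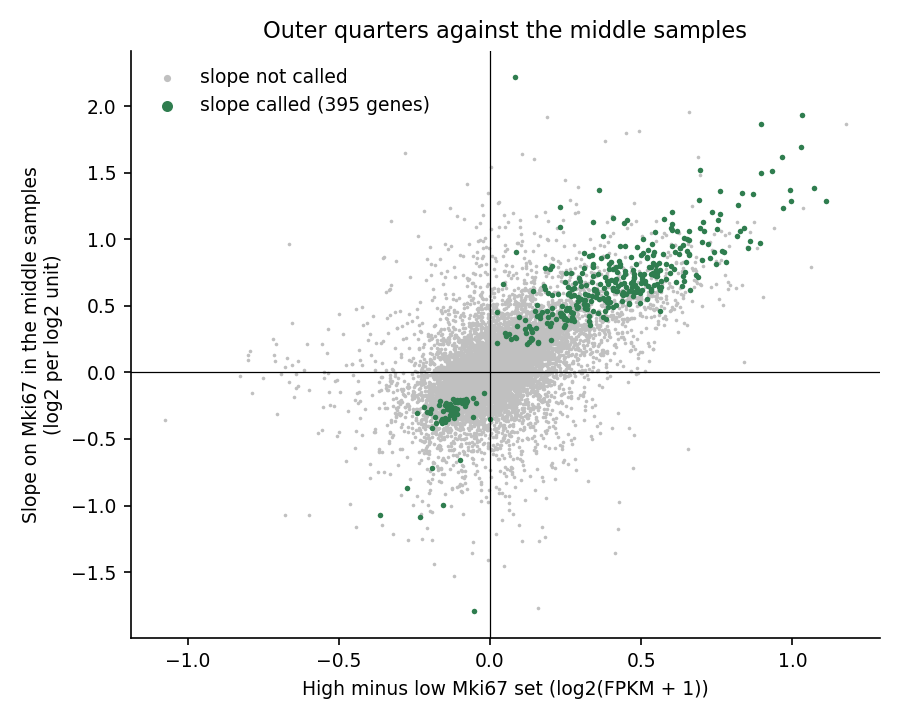
Each gene's slope on Mki67 in the 207 middle samples (log2 per log2 unit) against its difference between the high and low sets (log2(FPKM + 1)), with the 395 genes called in the middle samples in green. The green genes lie mainly in the upper right. The 50 genes with the largest falls, at the far left, have slopes on both sides of 0, from -1.07 to 0.96.

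The rises held a core of low-level genes that tracked Mki67 closely. The 50 genes with the largest ratio of difference to error, called the steadiest rises here and chosen after their values were seen, differed by 0.33 to 1.11 log2 units with a median of 0.63. They were low genes, with a median level of 1.82 FPKM where the median of all genes tested was 15.5, and a median of 24.9 reads per sample. Of the 50, 49 were called higher in the middle samples, where 2.03% of all genes were, and all 50 slopes were positive with a median of 0.79. They also varied together: the mean correlation between pairs of them over the 207 middle samples was 0.312, where it was 0.0015 for all genes. This correlation is a description, since the genes share their link to Mki67 and were picked for it. Block means were taken out before it and before the later correlations between genes. Their median difference was 0.66, 0.57 and 0.71 in blocks 1, 2 and 3.

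The steadiest of these rises was an unnamed gene of 5589 bp. In the low set its lowest, median and highest samples stood at 0.868, 2.71 and 4.41 FPKM, and in the high set at 3.47, 6.29 and 22.0 FPKM. Of the 104 high samples 97 lay above the highest low sample, so that the 2 sets barely overlapped. Its mean rose from 2.82 ± 0.633 to 6.78 ± 2.52 FPKM (SD, n = 104 each), a difference of 0.99 on the log2(FPKM + 1) scale (SE 0.044). In the middle samples, which had no part in its choice, its slope on Mki67 was 1.37 (SE 0.13, limma adjusted p 9.11e-17), with the largest ratio of slope to error of all genes tested there. The 5 samples with the most Mki67 were also the 5 with the most of this gene, in the same order, at 22.0, 16.2, 14.0, 12.8 and 11.8 FPKM.

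The largest rise over all genes was uneven between samples. ENSRNOG00000023068 (1965 bp) stood at 0, 0.773 and 12.1 FPKM in the lowest, median and highest samples of the low set, and at 0.104, 2.79 and 31.9 FPKM in the high set. Most of the 2 sets overlapped, and 21 high samples lay above every low sample. It rose by 1.18 on the log2(FPKM + 1) scale (SE 0.15, limma adjusted p 2.97e-11). Within blocks 1, 2 and 3 the difference was 1.92, 0.88 and 1.51, with adjusted p of 0.0808, 1.61e-04 and 7.67e-05. Its slope in the middle samples was 1.86 and missed the threshold (adjusted p 0.0729). In the sample with the most Mki67 it stood at only 0.418 FPKM, and in the next 2 samples at 28.2 and 25.6 FPKM.

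The second largest rise followed Mki67 through its range. ENSRNOG00000017175 (744 bp) stood at 3.19, 7.31 and 14.8 FPKM in the lowest, median and highest samples of the low set, and at 8.10, 16.0 and 47.2 FPKM in the high set. Its median was 8.81 FPKM in the lower part of the middle samples and 11.1 FPKM in the upper part, so that it climbed over the whole range of Mki67. All 104 high samples lay above the median of the low set, and 60 lay above its highest sample. It rose by 1.11 (SE 0.062, limma adjusted p 1.60e-40), and by 1.08, 1.07 and 1.20 within blocks 1, 2 and 3. Its slope was 1.29 in the middle samples (SE 0.215, adjusted p 9.09e-06). The sample with the most Mki67 also had the most of this gene, and the 5 samples richest in Mki67 were all among its 7 highest.

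The remaining large rises were more variable genes and tracked Mki67 less tightly. Of the 50 largest rises, again chosen after their values were seen, 12 were among the steadiest 50. Over all 50 the differences ran from 0.76 to 1.18, and the median SD of a gene over all samples was 0.69, where the steadiest rises had 0.36 and all genes 0.24. The steadiest rises were picked by a ratio to error, so their lower SD follows in part from that choice. In the middle samples 25 of the 50 were called higher and all 50 slopes were positive. The 38 that were not among the steadiest had a mean pairwise correlation of 0.325 with each other in the middle samples, but of 0.163 with the steadiest rises. Of these 38 genes, 14 were called in the middle samples. They thus varied more with each other than with the steadiest rises, which describes lists picked from the contrast and tests nothing.

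**Figure D4:**
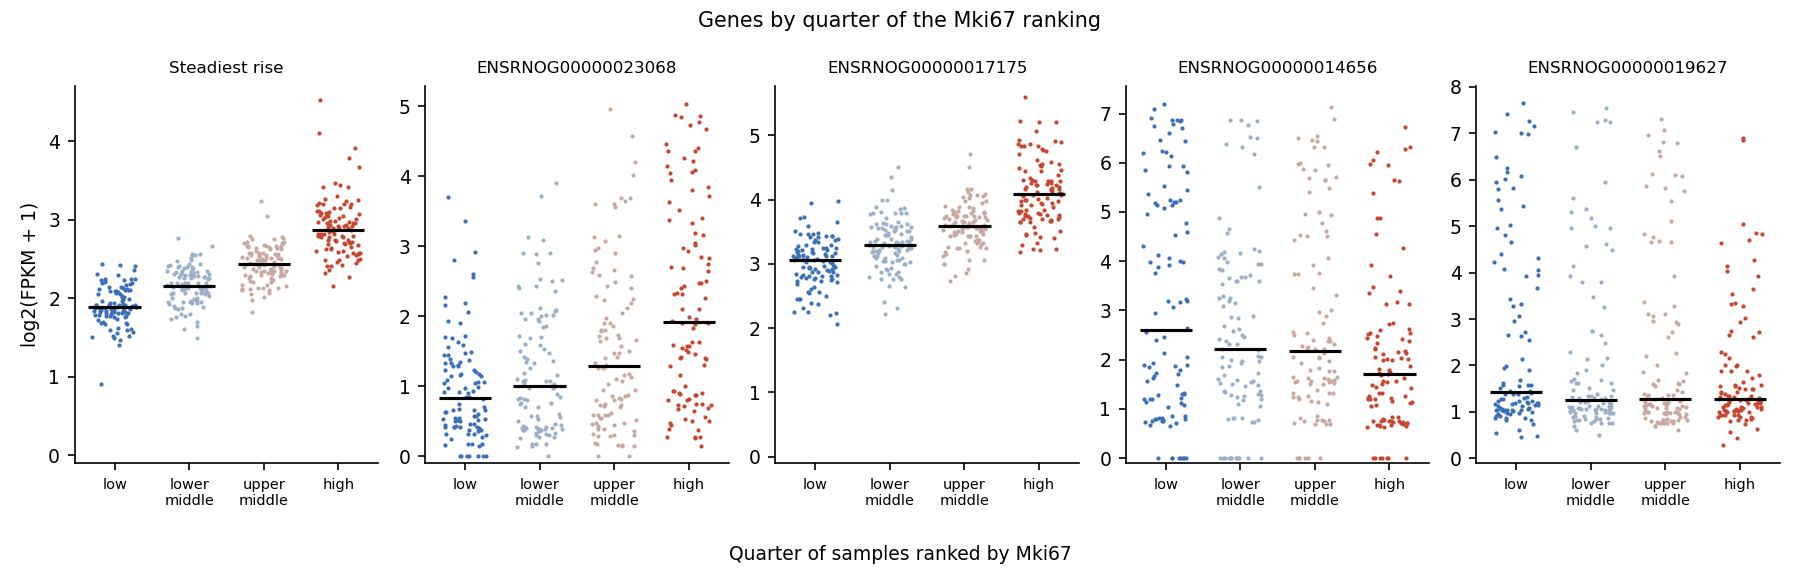
Level (log2(FPKM + 1)) of the steadiest rise, the 2 largest rises and the 2 largest falls in each sample, by the 4 classes of the Mki67 ranking (low, lower middle, upper middle and high), with black bars at the medians. The steadiest rise and ENSRNOG00000017175 climb through all 4 classes, and ENSRNOG00000023068 spreads upward in the high set. Both falls have fewer samples with high values in the high set than in the low set, with no steady decline through the middle classes. Most samples stay low in every class.

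The 2 largest falls came from a minority of samples with very high levels. ENSRNOG00000014656 (319 bp) stood at 0, 5.04 and 146 FPKM in the lowest, median and highest samples of the low set, and at 0, 2.25 and 105 FPKM in the high set. The ranges overlapped almost wholly, and the sets differed in how many samples were high: 36 low samples and 13 high samples exceeded 20 FPKM, as did 13 and 28 in the lower and upper parts of the middle. It fell by 1.07 on the log2(FPKM + 1) scale (SE 0.28, limma adjusted p 8.29e-04). Within blocks 1, 2 and 3 it differed by -1.105, -0.876 and -1.453 (limma adjusted p 0.542, 0.0593 and 0.0309), so it passed only in block 3. Its slope in the middle samples was -0.35 (SE 1.13, limma adjusted p 0.931), too imprecise to tell a trend from none. When the 207 samples with the most Mki67 were compared with the 207 with the least, the fall was -0.44 and missed the threshold (adjusted p 0.0692).

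ENSRNOG00000019627 (3658 bp) behaved alike. Its lowest, median and highest samples stood at 0.371, 1.68 and 199.6 FPKM in the low set and at 0.229, 1.44 and 118 FPKM in the high set, with 23 low and 7 high samples above 20 FPKM. It fell by 0.83 (SE 0.24, limma adjusted p 0.00282), with differences of -1.38, -0.52 and -1.26 within blocks 1, 2 and 3. Only that of block 3 passed (adjusted p 0.0428). Its slope in the middle samples was -0.03 and also imprecise (SE 1.12, adjusted p 0.997). In the comparison of 207 with 207 samples its fall was -0.36 (adjusted p 0.107). The 2 falling genes were high in many of the same samples: 90 and 67 samples exceeded 20 FPKM, and 48 exceeded it for both, of which 19 were low and 4 were high in Mki67.

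As a set, the largest falls were variable genes that varied together. The 50 genes with the largest falls, of which 45 were called, fell by 0.48 to 1.07 with a median of -0.63, and the median SD of a gene was 1.38. Picking genes by the size of the fall itself favours variable genes. Their mean pairwise correlation in the middle samples was 0.497, above that of the other 3 lists of 50. Nevertheless 0 of the 50 were called in the middle samples by limma, and 29 slopes were negative and 21 positive, with a median of -0.02. With log2 reads as a covariate or with voom 0 were called as well, and 39 and 37 slopes were negative. This too depended on the scaling of Mki67: with all values quantile-normalized, Mki67 included, 40 of the 50 were called lower with a median slope of -2.35, but with Mki67 as deposited 0 were called and the median was -0.09. Their median difference was -1.22 in block 1, -0.28 in block 2 and -1.05 in block 3, and 0, 10 and 37 of them were called there. Thus the large falls set the lowest Mki67 samples apart from the highest. In the middle samples, among the scalings and covariates given here, they were called only where Mki67 itself was rescaled. Mki67 varied little in the middle samples (SD 0.117 on the log2(FPKM + 1) scale, where the set means differed by 0.844). Slopes of such variable genes are imprecise over that range, so the missing calls cannot tell a trend from none.

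The steadiest falls were small changes in abundant genes. The 50 genes with the largest ratio of fall to error fell by 0.09 to 0.56 with a median of -0.19. Their median level was 58.3 FPKM, and the median SD of a gene was 0.17, where all genes had 0.24. Picking genes by the ratio of fall to error itself favours a low SD. In the middle samples all 50 slopes were negative and 11 genes were called lower, where 0.422% of all genes were. Their mean pairwise correlation in the middle samples was 0.313, and with the steadiest rises it was -0.093.

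Direction went with level under the scaling of the deposited values. When the genes were split into 4 equal classes by mean FPKM, with medians of 2.09, 9.24, 22.9 and 50.1 FPKM, the share called higher between the sets was 23.4%, 24.7%, 19.97% and 9.20% from the lowest class to the highest. The share called lower was 6.77%, 10.6%, 18.3% and 39.2%. Genes of the lowest class could pass the filter through the high set alone or the low set alone, so their shares depend on it. Of all calls between the sets, 50.8% were rises here, 53.4% with no filter and 48.6% with a filter at 80% of samples. In the middle samples 2.93% of the lowest class were called higher and 0.0744% lower, while in the highest class 0.521% were called higher and 1.44% lower. With log2 reads per sample as a covariate the shares called lower between the sets were 8.04%, 13.4%, 22.1% and 38.4%. This pattern depended on the scaling: after quantile normalization, which gives every sample the same distribution of values, the shares called higher were 16.1%, 16.8%, 16.7% and 18.4% and the shares called lower were 16.0%, 23.2%, 23.5% and 24.2%. In this contrast all 50 steadiest rises and all 50 steadiest falls were called in the same direction after quantile normalization, with a median of 0.57 and of -0.15. Both lists had been picked from this same contrast for their ratio of difference to error, so this is no independent check of the scaling. For the slope in the middle samples, quantile normalization of all values, Mki67 included, gave 50 of the 50 rises and 24 of the 50 falls called, with 43 falls of the same sign. With Mki67 as deposited it gave 42 rises and 1 fall called.

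**Figure D5:**
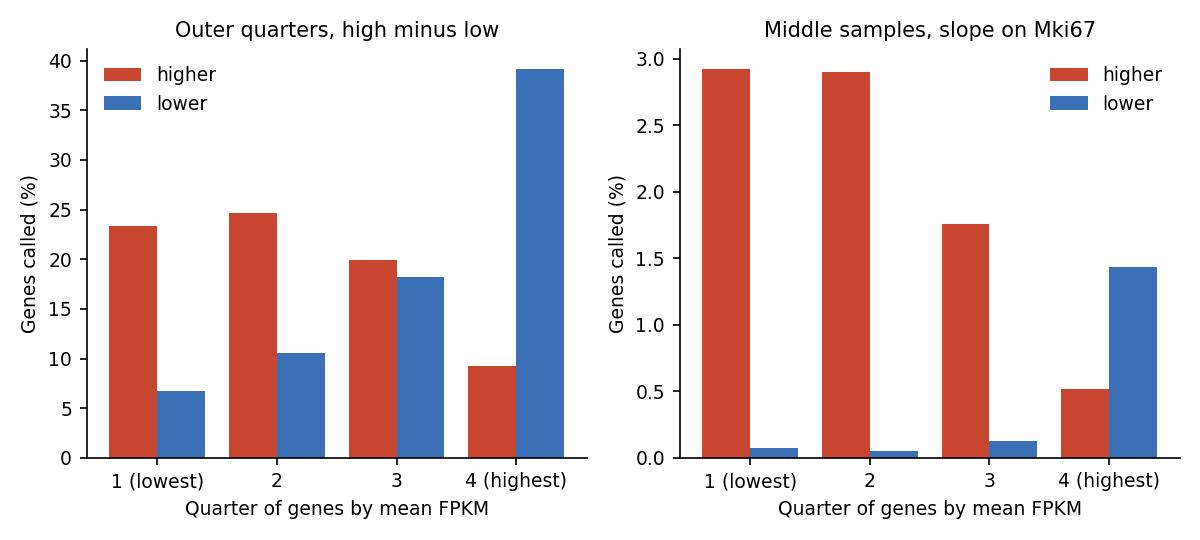
Percent of genes called higher (red) and lower (blue) in each of 4 equal classes of genes by mean FPKM, between the high and low sets (left) and for the slope on Mki67 in the middle samples (right; each panel has its own axis). In both panels falls outnumber rises only in the highest class, at 39.2% against 9.20% on the left and 1.44% against 0.521% on the right, under the deposited scaling.

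Within blocks the contrast was seen where samples were many. Block 2 alone gave 4397 called genes (27.3%), block 3 gave 3125 (19.4%), and block 1, with 11 high and 9 low samples, gave 91 (0.564%) and 2183 genes at an unadjusted p under 0.05. Of the 6129 genes called over all blocks, 81.8% had the same sign in block 1, 99.95% in block 2 and 98.8% in block 3, and 80.8% had 1 sign in all 3 blocks, against 48.9% of all genes tested. These are the samples that made the calls, so the shares describe the spread of the result and do not test it again. In block 1, 43 of the 50 steadiest rises were called, against 0 of the steadiest falls and 0 of the largest falls. A test of whether the contrast differed between blocks (limma F test of the interaction) called 0 genes (0%), with 1192 at an unadjusted p under 0.05.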

How the data were processed

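Per the labels' protocols, Trizol RNA of snap-frozen fat was sequenced as single-end reads on an Illumina HiSeq. STAR, Picard, featureCounts and DESeq2 are named in the submitters' processing notes, and the genome build and annotation are not given in the sources used here. The deposited values were FPKM that the authors had scaled between samples. Each equalled whole reads over gene length and over a factor of the sample, which was a median-of-ratios size factor times the geometric mean of total reads. Whole reads were recovered for 100% of values (tolerance 0.001, 18358 genes, median 4602134 reads per sample), and counting error is the only error they cover.

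Genes that exceeded 1 FPKM in 20% or more of samples were tested on log2(FPKM + 1) with limma 3.58.1 in R 4.3.3 (lmFit and eBayes, Benjamini-Hochberg adjusted p under 0.05 over all genes). The main test used the deposited FPKM and therefore no count model, and voom, run on the recovered reads, served only as an alternative. The fits were tested on simulated data with 200 of 16130 genes changed. Between the sets, at an effect of 0.75 SD, 97.5% of the changed genes were found with 7 false calls. For the slope in the middle samples, at 0.5 SD, 100% were found with 11 false calls. The real data held a far larger share of called genes between the sets (38.0%). In the middle samples the slopes of variable genes were too imprecise to tell a trend from none. Neither rate therefore carries over to the real data. Permutation tests used numpy 2.4.6 in Python 3.11.15. Nothing in the labels says which samples come from separate animals, so p-values measure the spread between samples.

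The samples and gene lists were chosen with earlier results of these data known. By the rule for named genes, the 2 called genes with the largest rise and the 2 with the largest fall are given by identifier, because symbols could not be paired with identifiers. The steadiest rise and the lists of 50 were added after the values were seen. Planned lists of cell cycle genes and cell type markers were not applied, for the same reason. Promoter windows and their positions come from RefSeq (GRCr8).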

Additional observations from a re-analysis of the deposited data

How the results depend on the processing

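Under 16 alternatives the number of genes called between the high and low sets ran from 5125 to 6709, within 1.5 times the 6129 reported, and 4764 to 6069 of the reported genes were called again in the same direction. The share of calls that were rises ran from 43.9%, after quantile normalization, to 53.4%. The lowest count came from leaving out the 10 samples with the most Mki67 and the highest from leaving out title numbers 60213 to 61163, both chosen after the data were seen. In the middle samples 7 of 9 alternatives gave 353 to 529 calls. Quantile normalization of all values, Mki67 included, gave 4806 calls, 62.0% of them rises. Quantile normalization of the other genes with Mki67 as deposited, chosen after the data were seen, gave 253 calls, 88.5% of them rises. The rescaling of Mki67 itself thus made the difference between 4806 and 253. With Mki67 as deposited, 42 of the 50 steadiest rises and 1 of the 50 steadiest falls were still called there.

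Of the 4 genes given by identifier, none reversed, and both falls missed the threshold only where the 207 samples with the most Mki67 were compared with the 207 with the least. The filter at 80% of samples tested 1 of these 4 genes, ENSRNOG00000017175. The resemblance of samples with the same title number ran from 0.187 to 0.236 over 4 alternatives. The planned fit with Ptprc as covariate was not run because the identifiers carry no names. With the title number as a random block (consensus correlation 0.338 between the sets and 0.252 in the middle samples) 6299 genes were called between the sets and 428 in the middle samples. Depth limits the order of samples: the low and middle samples rest on medians of 144 and 201 Mki67 reads.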
